A study of Mus musculus with 8 samples.

Results

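The collagen genes of mouse liver were described in tumours and non-tumour tissue of carcinogen-treated mice. Genes were taken whose symbol had the form of a collagen alpha chain (Col, a type number, a, a chain number), which gave 44 genes among the 54838 of the deposited count files. RNA had been sequenced in bulk from 8 liver pieces of wild-type male C57BL/6J mice, 4 labelled tumour and 4 labelled non-tumour. All had received the liver carcinogen diethylnitrosamine (DEN) into the peritoneum on day 15 and a high-fat diet (HFD) with SW, which the labels do not expand. The stated time point was 30 weeks, given both as the length of feeding and as the time after the injection. The source label is whole liver tissue for tumour and non-tumour pieces alike. Liver without carcinogen or without the diet was not analysed here. Separate mice are not named in the labels, so the spread behind each p-value may be technical.

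Collagens are proteins of the extracellular matrix in which alpha chains wind into a triple helix made of repeats that begin with glycine. Fibrillar collagens build the fibres that accumulate in liver scars, collagen IV builds the sheet of basement membranes, and the other classes decorate fibres, form beaded filaments or anchor in cell membranes. In normal liver most fibrillar collagen comes from stellate cells and portal fibroblasts, and the sinusoids have only a sparse basement membrane.

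Totals ran from 15446690 to 21977052 counts per library, and the hepatocyte gene albumin took 7.56% to 13.9% of the counts, so each piece held hepatocyte RNA. Tumours 2 and 4 were near-identical libraries, as were non-tumours 2, 3 and 4, which left 5 distinct profiles. Chi-square values of the gene counts per degree of freedom were 1.58 to 3.28 in these 4 pairs, against 71.7 to 165 in the other 24. Near-identical libraries were summed into 1 profile for tests and averaged for means, so that n is 3 for tumours (profiles 1, 2/4 and 3) and 2 for non-tumour tissue (profiles 1 and 2/3/4). Levels are given in CPM, the usual depth-scaled read count, here with TMM-adjusted library sizes, and a level between genes is compared only as CPM per kb of exon. A count of 0 allows up to 3 counts, or 0.137 to 0.205 CPM, for counting error only.

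Of the 44 collagen genes, 38 had at least 1 read, 21 had a mean of at least 1 CPM over the profiles and 24 passed the low-count filter and were tested. The filter asks for a minimum level in at least 2 profiles, so the tested genes are not all of the collagens. The other 20 reached at most 0.865 CPM in any library. Transcripts of a single gene, Col18a1, made up 72.1% to 83.9% of the collagen signal per kb of exon in every library. The ranking by mean level per kb continued with Col14a1, Col4a1, Col5a3, Col4a2, Col3a1 and Col27a1, at 5.27, 4.21, 3.93, 3.23, 2.28 and 2.10 CPM per kb, against 98.0 for Col18a1. Col1a1 and Col1a2, the chains of type I collagen, stood at 0.693 and 0.589 CPM per kb. No read was assigned to Col6a4, Col10a1, Col11a1, Col19a1, Col26a1 or Col28a1.

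**Figure D1:**
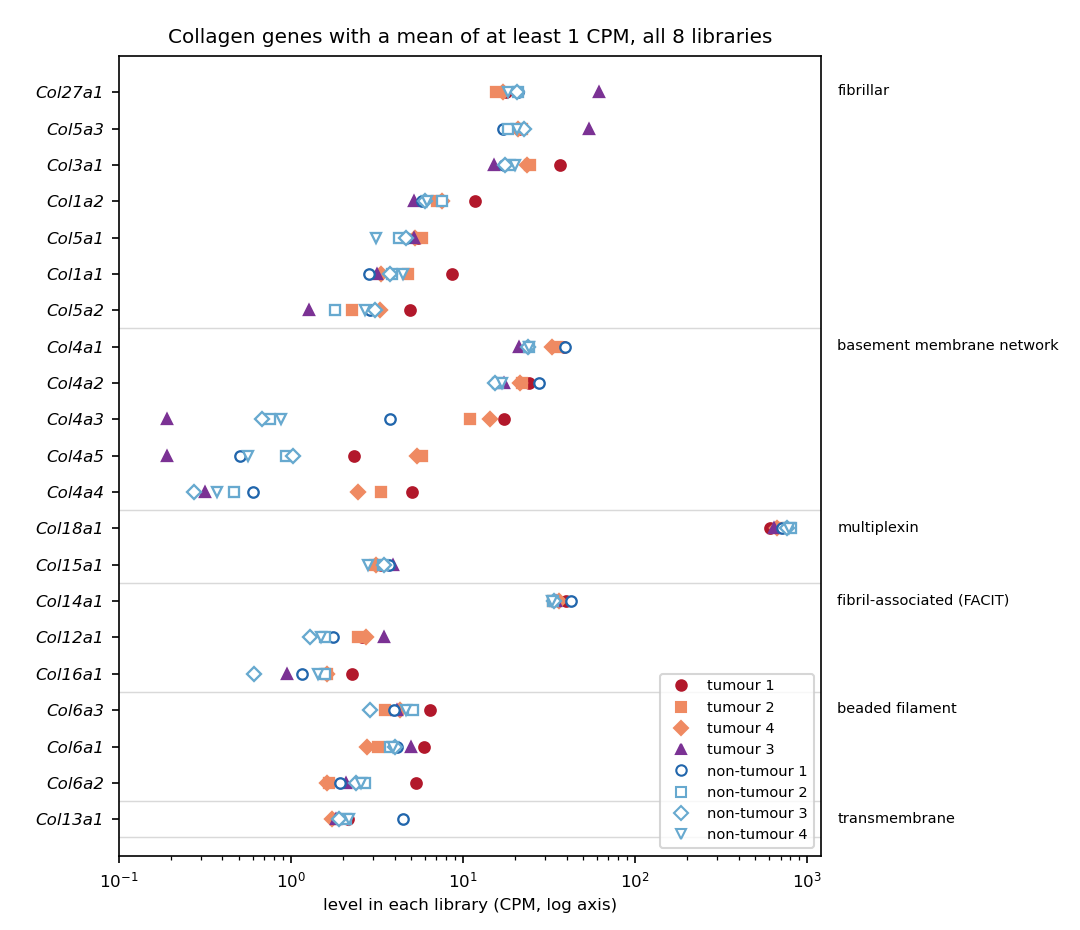
Level of the 21 collagen genes with a mean of at least 1 CPM in each of the 8 libraries (horizontal log axis, CPM), grouped by class; filled symbols are tumour libraries and open symbols non-tumour libraries. Col18a1 lies near the right edge in every library, Col4a3, Col4a4 and Col4a5 lie to the right in tumours 1, 2 and 4, and Col5a3 and Col27a1 in tumour 3.

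Tumours were compared with non-tumour tissue to find which collagens differ in level between them. No collagen passed the test over the 5 profiles. With edgeR's quasi-likelihood test and Benjamini-Hochberg adjustment over all genes, 0 of 24 tested collagens and 0 of 13650 genes (0%) had an adjusted p under 0.05. At an unadjusted p under 0.05 there were 2 collagens, Col12a1 and Col4a4, among 451 genes (3.30%). DESeq2 called 2 genes and limma voom 0, none of them a collagen. With the 8 libraries taken as separate replicates, 0 of 23 tested collagens passed, against 56 of 12880 genes (0.435%). In that fit 5 collagens had an unadjusted p under 0.05, against 18% of all genes.

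The median log2 fold change of the 24 tested collagens was 0.39, against 0.014 for all genes tested, and 17 of the 24 (70.8%) had a positive value, against 52.2% of all genes. The median rested on tumour 1, without which it was 0.068. Tumour 1 held the highest of the 5 profiles for 12 of the 24 collagens, against 20.6% of all genes tested. Tumour 3 did so for 5 (29.9% of all genes), non-tumour 1 for 4 (20.4%), tumours 2/4 for 2 (12.3%) and non-tumours 2/3/4 for 1 (16.7%). The lowest profile was tumour 3 for 10 collagens (30.5% of all genes), tumours 2/4 for 7 (12.2%), non-tumours 2/3/4 for 4 (18.1%), non-tumour 1 for 2 (19.6%) and tumour 1 for 1 (19.6%). Levels in all tumour profiles were above both non-tumour profiles for 3 collagens (12.5%), Col12a1, Col5a1 and Col5a3, against 10% of all genes, and below both for Col18a1 alone, against 8.32%. The shares without overlap were near or under those of all genes, so they say nothing particular about collagens. Relative to the mean of the non-tumour profiles, the median log2 difference of the 24 collagens was 0.55 in tumour 1, 0.098 in tumours 2/4 and -0.22 in tumour 3, so tumours 1 and 3 lay on opposite sides.

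**Figure D2:**
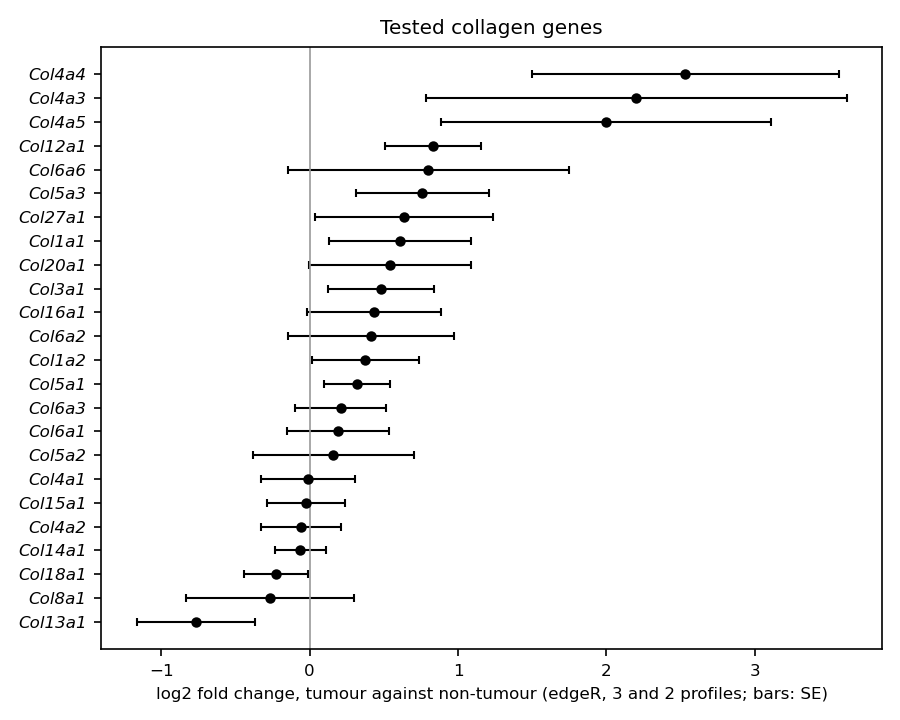
Log2 fold change, tumour against non-tumour, of the 24 tested collagen genes (horizontal axis; points, edgeR estimate over 3 tumour and 2 non-tumour profiles; bars, standard error). Col4a4, Col4a3 and Col4a5 have the largest estimates, 2.53, 2.20 and 2.00, with standard errors above 1, and none passed the test.

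Among the fibrillar collagens, tumour 1 stood apart for types I and III and tumour 3 for Col5a3 and Col27a1. Col3a1, the chain of type III collagen found with type I in reticular fibres (chromosome 1, 45311538 to 45349706, GRCm38), stood at 36.8 CPM in tumour 1, 24.4 and 23.6 CPM in tumours 2 and 4 and 15.1 CPM in tumour 3, against 17.3 CPM in non-tumour 1 and 18.9, 17.5 and 19.97 CPM in non-tumours 2, 3 and 4. Tumour 1 was the highest, tumours 2 and 4 came next, and tumour 3 was the lowest of all libraries, so the groups overlapped (log2 fold change 0.48, SE 0.36, edgeR adjusted p = 0.995). Col1a1 (chromosome 11, 94936224 to 94953042) stood at 8.65, 4.76, 3.17 and 3.36 CPM for tumours 1, 2, 3 and 4 and at 2.83, 3.85, 3.75 and 4.49 CPM for non-tumours 1, 2, 3 and 4. Its partner Col1a2 (chromosome 6, 4504814 to 4541544) stood at 11.8 CPM in tumour 1, 7.02 and 7.55 CPM in tumours 2 and 4 and 5.20 CPM in tumour 3, against 5.75 CPM in non-tumour 1 and 7.58, 6.00 and 6.18 CPM in non-tumours 2, 3 and 4. For both chains tumour 1 was the highest, at 8.65 and 11.8 CPM, while the other tumours lay at 3.17 to 4.76 CPM and 5.20 to 7.55 CPM, over much the same range as non-tumour tissue (2.83 to 4.49 CPM and 5.75 to 7.58 CPM). The log2 fold change was 0.61 (SE 0.48) for Col1a1 and 0.37 (SE 0.36) for Col1a2, with an adjusted p of 0.995 for each in edgeR. Without tumour 1 these values were 0.068 and 0.0094, and that of Col3a1 was 0.11.

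Type I collagen is assembled with more alpha 1 than alpha 2 chains. The ratio of Col1a1 to Col1a2 per kb of exon ran from 0.842 to 1.39 over the libraries, with a mean of 1.14 ± 0.170 (SD, n = 5 profiles). The near-identical tumours 2 and 4 spanned 0.842 to 1.28. In plain reads Col1a1 was below Col1a2 in every library, at a ratio of 0.444 to 0.736. The annotated exon length was 6563 bases for Col1a1 and 12426 bases for Col1a2, so the side of 1 depended on the length used. Col3a1 exceeded Col1a1 per kb in every library, by a ratio of 2.85 to 4.70.

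Type V collagen regulates the diameter of type I fibrils. Its chain gene Col5a3 (chromosome 9, 20770050 to 20815067) stood at 21.1, 22.0, 53.8 and 20.8 CPM for tumours 1, 2, 3 and 4 and at 17.1, 18.2, 22.7 and 20.5 CPM for non-tumours 1, 2, 3 and 4. Tumour 3 alone was high, at 53.8 CPM, and the other 7 libraries lay between 17.1 and 22.7 CPM (log2 fold change 0.76, SE 0.45, edgeR adjusted p = 0.995). The profile values did not overlap between the groups, although single libraries did, since non-tumour 3 exceeded tumours 1, 2 and 4. Without tumour 3 the fold change was 0.17. Col27a1, a fibrillar collagen best known from cartilage (chromosome 4, 63214004 to 63334991), stood at 17.8 CPM in tumour 1, 15.5 and 17.1 CPM in tumours 2 and 4 and 61.8 CPM in tumour 3, against 20.8 CPM in non-tumour 1 and 20.8, 20.5 and 18.3 CPM in non-tumours 2, 3 and 4. Here too tumour 3 was far above the rest, and without it the fold change turned from 0.64 to -0.26.

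The other type V chains did not follow Col5a3 in tumour 3. Col5a1 (chromosome 2, 27886425 to 28039514) averaged 5.40 ± 0.178 CPM in tumours (SD, n = 3) against 4.32 ± 0.450 CPM in non-tumour pieces (SD, n = 2), and its tumour libraries lay at 5.20 to 5.79 CPM against 3.12 to 4.64 CPM, without overlap (log2 fold change 0.32, SE 0.22, edgeR adjusted p = 0.995). Col5a2, which lies beside Col3a1 on chromosome 1, was lowest in tumour 3 at 1.27 CPM and highest in tumour 1 at 4.92 CPM. The ratio of Col5a3 to Col5a1 per kb was 12.9 in tumour 3 and 4.59 to 8.20 in the other libraries. Of the other fibrillar genes, Col11a2 and Col24a1 reached at most 0.683 and 0.319 CPM, Col2a1 had 1 read and Col11a1 none.

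Summed over the class, fibrillar collagens made up 13.2% of the collagen signal per kb in tumour 3, 9.75% in tumour 1, 7.17% and 7.29% in tumours 2 and 4 and 5.94% to 6.60% in non-tumour tissue. The makeup behind the high sums differed. In tumour 3 Col5a3 and Col27a1 led, at 7.90 and 4.74 CPM per kb. In tumour 1 Col3a1 led at 3.75 CPM per kb, followed by Col5a3 at 3.10, Col27a1 at 1.37, Col1a1 at 1.32 and Col1a2 at 0.946. All collagens other than Col18a1 together reached 27.1 to 33.7 CPM per kb in tumours, 27.4 in non-tumour 1 and 22.0 to 22.2 in non-tumours 2, 3 and 4.

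**Figure D3:**
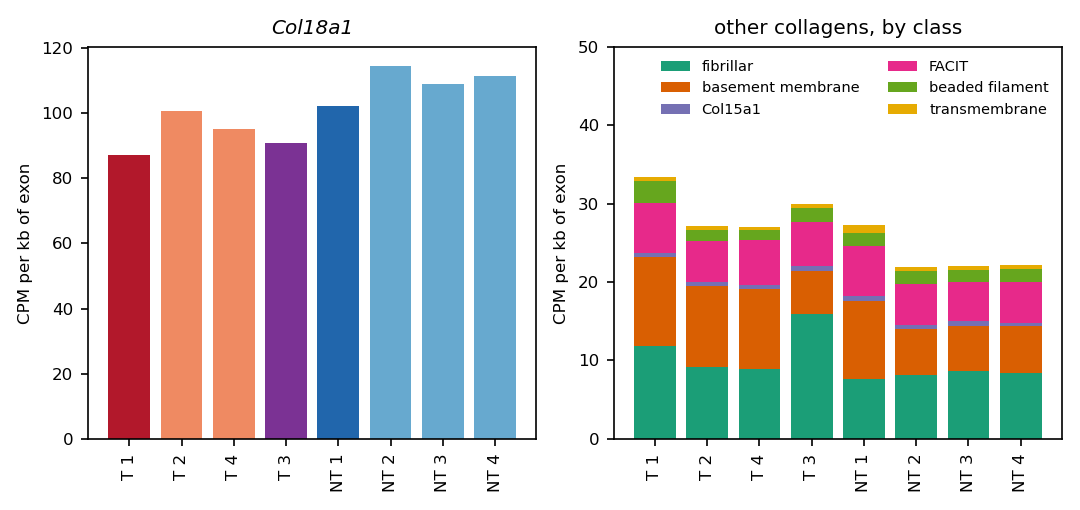
Level of Col18a1 (left) and summed level of the other collagens by class (right) in CPM per kb of exon, for tumour (T) and non-tumour (NT) libraries; the short-chain and anchoring class, at most 0.245 CPM per kb, is not drawn. The fibrillar part is tallest in tumour 3, at 15.9 CPM per kb, and the basement membrane part is taller in tumours 1, 2 and 4 and non-tumour 1 than in the other libraries.

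Markers of fibroblastic cells were compared alongside, since in bulk tissue fewer cells of a type and less RNA per cell cannot be told apart. The 9 portal fibroblast and myofibroblast markers summed to 38.2 CPM in tumour 1 and to 11.9 to 14.1 CPM in the other 7 libraries. In tumour 1, Acta2 and Tagln, contractile genes of myofibroblasts, stood at 7.15 and 10.9 CPM, against 1.58 to 3.07 CPM and 3.93 to 6.05 CPM elsewhere. Msln, also a marker of mesothelium, the lining of the liver surface, stood at 7.83 CPM there and at 0.0624 to 1.08 CPM elsewhere, and Gli1 had at most 2 reads in a library. Eln and Cd34 were also highest in tumour 1, at 2.55 and 5.28 CPM against 0.706 to 1.23 CPM and 0.524 to 2.37 CPM. The other 3 markers were not high in tumour 1 alone. Thy1 was highest in tumour 3 (1.90 CPM, against 1.37 CPM in tumour 1 and 1.22 to 1.56 CPM in non-tumour tissue), Timp1 stood at 0.592 to 0.687 CPM in tumours 1, 2 and 4 and 0.101 to 0.250 CPM elsewhere, and Fbln2 at 1.43 to 2.37 CPM and 0.614 to 1.06 CPM. All 8 tested markers of this list had a positive fold change, with a median of 0.79, and 0 passed. The sign did not hold in every tumour. Tagln in tumours 2, 3 and 4 (3.93 to 4.63 CPM) lay below every non-tumour library (4.94 to 6.05 CPM). The 9 stellate cell markers summed to 177 to 211 CPM in tumours and 189 to 222 CPM in non-tumour tissue, and 2 of 9 had a positive fold change. Much of the sums was Ecm1. It stood at 60.0 to 73.2 CPM in tumours 1, 2 and 4, 129 CPM in tumour 3 and 86.7 to 101 CPM in non-tumour tissue. Lrat, the retinol-esterifying enzyme that marks quiescent stellate cells, was lower in every tumour (10.3 to 13.0 CPM against 16.7 to 18.6 CPM). Its adjusted p in edgeR was 0.995, and 0.0394 over the 8 separate libraries, a fit that counts near-identical libraries as replicates. Ngfr was also lower in every tumour, at 1.84 to 3.09 CPM against 3.68 to 4.81 CPM. The positive fold changes were those of Reln and Pdgfrb. Reln stood at 48.6 to 62.1 CPM in tumours 1, 2 and 4 and 27.6 CPM in tumour 3. In non-tumour tissue Reln stood at 26.4 to 37.7 CPM. The part of these cell types in the collagen levels was not tested.

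**Figure D4:**
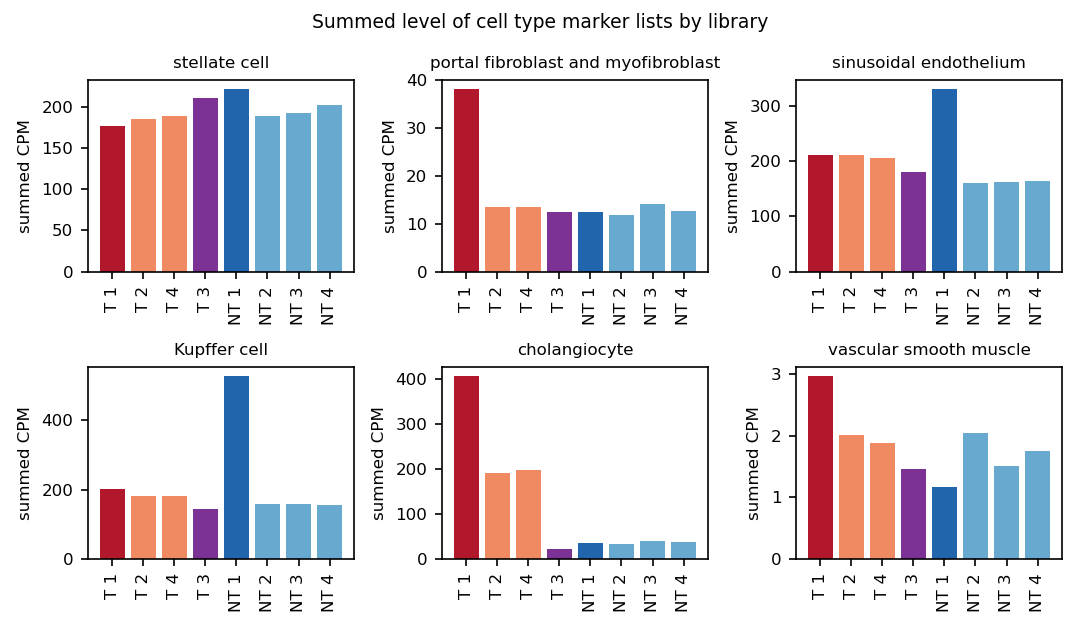
Summed CPM of 6 cell type marker lists in each tumour (T) and non-tumour (NT) library. The sum of the portal fibroblast and myofibroblast markers is high in tumour 1 alone, that of the sinusoidal endothelial and Kupffer cell markers in non-tumour 1, and cholangiocyte markers in tumours 1, 2 and 4.

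Collagen IV gave the widest differences between libraries. Col4a1 and Col4a2 encode the alpha 1 and alpha 2 chains of the collagen IV of nearly all basement membranes. The genes lie head to head on chromosome 8 (Col4a1 at 11198423 to 11312826 on the minus strand and Col4a2 at 11312805 to 11449287 on the plus strand, GRCm38). Col4a3, Col4a4 and Col4a5 encode the alpha 3, alpha 4 and alpha 5 chains of a separate network known from the kidney glomerulus, lung and inner ear, whose loss causes Alport syndrome. Col4a3 and Col4a4 are likewise head to head on chromosome 1 (82586921 to 82722059, plus strand, and 82448423 to 82586849, minus strand). Col4a5 lies on chromosome X (141475385 to 141689234, plus strand), also head to head with its neighbour Col4a6 (minus strand).

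The sequences at the starts of these genes are shown as a description of their arrangement. Col4a3 and Col4a4, and likewise Col4a1 and Col4a2, share a start region, while Col4a5 and Col4a6, also head to head, start farther apart. Whether a shared start region bears on the levels was not tested. RefSeq promoter windows (GRCm38.p6, 250 bases before to 50 after a start) matched 35 of the 44 collagen genes, among them Col4a1, Col4a2, Col4a4, Col4a5 and Col4a6. The first annotated bases of Col4a3 and Col4a4 lie 72 bases apart, those of Col4a1 and Col4a2 21 bases apart with overlapping 5′ ends, and those of Col4a5 and Col4a6 1309 bases apart. In the first 2 sequences capitals mark the bases from 1 start to the other, with 20 bases on either side (chr1:82586829-82586941 and chr8:11312785-11312846, both minus strand). In the third, the 250 bases before the RefSeq start of Col4a5 (chrX:141475169-141475418, plus strand), capitals mark a match to a CCAAT box and to a GC box.
Col4a3/Col4a4: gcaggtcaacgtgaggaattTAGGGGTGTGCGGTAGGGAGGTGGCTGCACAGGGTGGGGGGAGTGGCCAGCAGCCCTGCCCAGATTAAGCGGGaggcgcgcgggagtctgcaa
Col4a1/Col4a2: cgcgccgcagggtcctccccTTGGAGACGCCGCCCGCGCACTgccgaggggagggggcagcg
Col4a5: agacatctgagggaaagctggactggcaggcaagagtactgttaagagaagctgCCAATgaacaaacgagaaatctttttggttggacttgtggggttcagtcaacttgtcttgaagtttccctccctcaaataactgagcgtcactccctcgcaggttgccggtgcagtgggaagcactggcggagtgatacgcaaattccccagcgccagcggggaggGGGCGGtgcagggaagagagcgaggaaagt
Motifs were searched on both strands of the full windows. The GC box was searched as GGGCGG and was present in 35.7% of all 32851 promoter windows of the same length. The CCAAT box, searched by those letters, was present in 37.4% and the TATA box, searched as TATAAA, in 13.6%. The AP-1 motif, TGANTCA, was present in 7.81%. The matches in the Col4a5 stretch did not overlap. The Col4a4 window held none of the 4, that of Col4a1 had 1 GC box and 1 CCAAT match, that of Col4a2 3 and 1, and that of Col4a5 1 and 1. A match is a description of letters only. The window of Col4a4 was 63.3% G and C and that of Col4a1 74%, against a median of 52.7% over all windows.

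The alpha 3, 4 and 5 chains of collagen IV were high in tumours 1, 2 and 4 and had 3 to 5 reads each in tumour 3. Col4a3 stood at 17.2, 10.9, 0.190 and 14.3 CPM for tumours 1, 2, 3 and 4 and at 3.78, 0.758, 0.682 and 0.874 CPM for non-tumours 1, 2, 3 and 4. In reads, these were 378, 223 and 290 in tumours 1, 2 and 4, 3 in tumour 3 and 75 in non-tumour 1. The exact Poisson 95% interval was 9.56 to 12.5 CPM in tumour 2, the lowest of the 3 high tumours, and 2.98 to 4.74 CPM in non-tumour 1, the highest of the others, for counting error only. Thus 3 tumour libraries exceeded every other library. Tumour 3 had the lowest value, but its interval, 0.0392 to 0.556 CPM, overlapped those of non-tumours 2, 3 and 4, which began at 0.403, 0.327 and 0.478 CPM.

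Its neighbour Col4a4 stood at 5.06 CPM in tumour 1, 3.34 and 2.47 CPM in tumours 2 and 4 and 0.317 CPM in tumour 3, against 0.605 CPM in non-tumour 1 and 0.466, 0.273 and 0.374 CPM in non-tumours 2, 3 and 4. The same 3 tumours were high, while tumour 3 lay within the non-tumour range. Col4a5 stood at 2.32, 5.79, 0.190 and 5.43 CPM for tumours 1, 2, 3 and 4 and at 0.504, 0.932, 1.02 and 0.562 CPM for non-tumours 1, 2, 3 and 4. Tumours 2 and 4 were the highest for this chain and tumour 1 came next, whereas tumour 1 led for Col4a3 and Col4a4. Per kb of exon the Col4a3 level was 0.232 to 0.334 times that of Col4a1 in tumours 1, 2 and 4, 0.00675 times in tumour 3 and 0.0214 to 0.0728 times in non-tumour tissue. Col4a6, the other neighbour of Col4a5, reached at most 0.273 CPM and was not tested.

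Across the 5 profiles the 3 chains had the largest fold changes of the tested collagens, 2.53 (SE 1.03), 2.20 (SE 1.42) and 2.00 (SE 1.11) in log2 for Col4a4, Col4a3 and Col4a5, and an edgeR adjusted p of 0.995 for each. With a library or profile left out the values ranged over 1.80 to 3.06, 1.41 to 3.68 and 0.89 to 2.51. Col4a5 was lowest without tumours 2 and 4, at 0.89, below Col5a3 at 0.98 and Col12a1 at 0.90 in that fit. Col4a3 was lowest without non-tumours 2, 3 and 4 and highest without non-tumour 1, and Col4a4 was lowest without tumour 1 and highest without tumour 3. The spread among tumours exceeded the difference between the groups' means for each of the 3 chains. The means were 2.76 ± 2.37 against 0.488 ± 0.166 CPM for Col4a4 and 10.01 ± 8.81 against 2.28 ± 2.13 CPM for Col4a3. For Col4a5 they were 2.71 ± 2.73 against 0.672 ± 0.237 CPM. Without tumour 3 the edgeR adjusted p was 0.136, 0.307 and 0.210, and it was 0.00172, 0.00957 and 0.00477 over the 7 remaining libraries taken as separate replicates, a fit added after seeing the data. There 5 of 24 tested collagens (these 3, Col12a1 and Col3a1) passed, all higher in tumours, against 7.81% of all genes on that side and 13.6% on either. That fit counts near-identical libraries as replicates. Without the low-count filter the 3 chains also passed over the 5 profiles (adjusted p = 1.48e-04, 7.50e-08 and 0.00359), against 1.35% of all genes on the higher side and 1.74% on either.

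Col4a1 and Col4a2 followed another order, in which non-tumour 1 was as high as tumour 1 or higher. Col4a1 stood at 38.6 CPM in tumour 1, 35.4 and 33.0 CPM in tumours 2 and 4 and 21.1 CPM in tumour 3, against 38.9 CPM in non-tumour 1 and 24.2, 23.9 and 24.3 CPM in non-tumours 2, 3 and 4. Non-tumour 1 and tumours 1, 2 and 4 were high, and tumour 3 and the other non-tumour libraries were low, so the groups overlapped. Col4a2 stood at 24.0, 21.9, 17.4 and 21.4 CPM for tumours 1, 2, 3 and 4 and at 27.6, 15.9, 15.4 and 16.9 CPM for non-tumours 1, 2, 3 and 4. The order was nearly the same, and the ratio of Col4a1 to Col4a2 per kb stayed within 1.08 to 1.43, with a mean of 1.30 ± 0.139 (SD, n = 5 profiles). In log2 their fold changes came to -0.013 (SE 0.32) and -0.056 (SE 0.27). Without non-tumour 1 they were 0.36 and 0.37, and without tumour 3 they were 0.20 and 0.064. The 8 sinusoidal endothelial markers summed to 331 CPM in non-tumour 1, 207 to 212 CPM in tumours 1, 2 and 4, 180.2 CPM in tumour 3 and 161 to 163 CPM in non-tumours 2, 3 and 4, and 0 of 8 had a positive fold change. The 6 Kupffer cell markers were also highest in non-tumour 1 (527 CPM, against 144 to 200.1 CPM elsewhere). The part of these cells in the Col4a1 and Col4a2 levels was not tested.

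**Figure D5:**
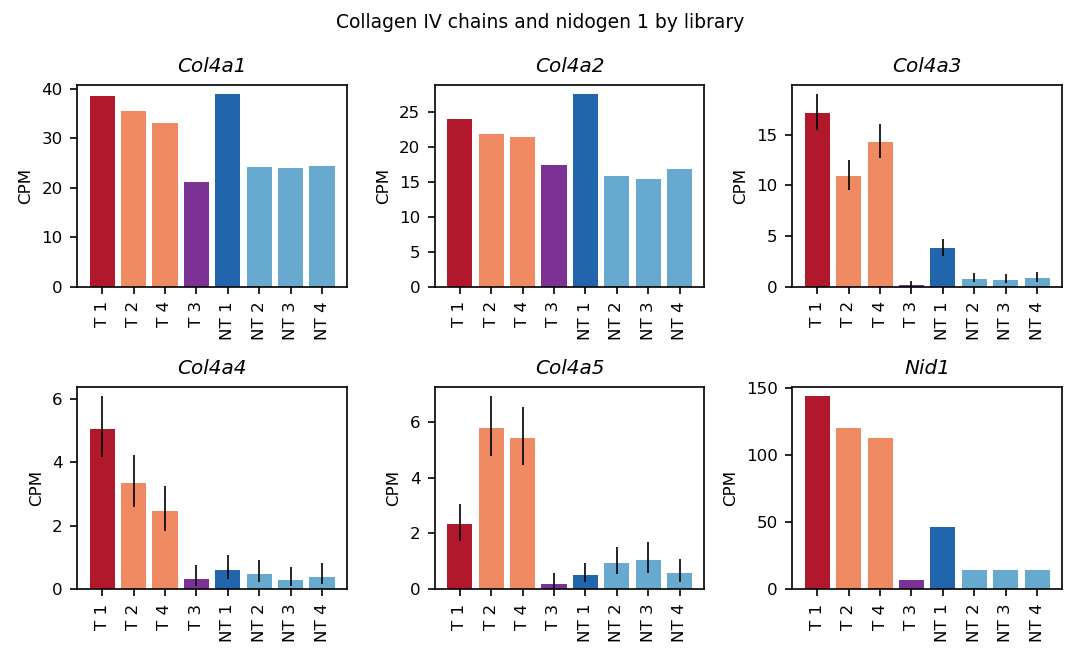
Level in CPM of the collagen IV chain genes and of Nid1 in each tumour (T) and non-tumour (NT) library; black bars on Col4a3, Col4a4 and Col4a5 are exact Poisson 95% intervals for counting error. Col4a3, Col4a4, Col4a5 and Nid1 are high in tumours 1, 2 and 4 and low in tumour 3. For Col4a1 and Col4a2, non-tumour 1 is as high as tumour 1 or higher.

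Of 15 genes for other basement membrane proteins (laminin chains, nidogens, perlecan and agrin), 14 were tested, 0 passed and 8 had a positive fold change, with a median of 0.24. Nid1, which encodes nidogen 1, a link between laminin and collagen IV, stood at 144 CPM in tumour 1, 120.1 and 113 CPM in tumours 2 and 4 and 6.59 CPM in tumour 3, against 45.9 CPM in non-tumour 1 and 14.0, 13.8 and 14.3 CPM in non-tumours 2, 3 and 4. It was chosen after its values were seen. As with Col4a3, the 3 high tumours exceeded every other library, non-tumour 1 came next and tumour 3 was the lowest (log2 fold change 1.57, SE 1.15, edgeR adjusted p = 0.995). Lama5, the laminin alpha 5 chain, stood at 7.0 ± 4.61 against 2.36 ± 1.01 CPM, with 6.09 to 11.9 CPM in tumours 1, 2 and 4 and 2.73 CPM in tumour 3. Lama3 lay on the other side, at 2.31 to 4.82 CPM in tumours and 7.47 to 10.1 CPM in non-tumour tissue, and Agrn, agrin, at 21.6 to 30.3 CPM and 17.7 to 20.1 CPM, without overlap. In log2 the differences of Lama5, Lama3 and Agrn were 1.59 (SE 0.64), -1.12 (SE 0.33) and 0.40 (SE 0.19), and none passed. Cholangiocytes are the bile duct cells, which rest on a basement membrane. The sum of their markers was high in tumours 1, 2 and 4, but not every marker was. The 7 markers summed to 406 CPM in tumour 1, 190.2 and 198 CPM in tumours 2 and 4, 22.8 CPM in tumour 3 and 33.3 to 40.0 CPM in non-tumour tissue, and 6 of 6 tested had a positive fold change. Most of the sum in tumours 1, 2 and 4 was Spp1 (98.4 to 205 CPM) and Tspan8 (83.3 to 190.2 CPM). The duct keratins Krt19 and Krt7 stood at 2.60 and 2.46 CPM in tumour 1 but at 0.0987 to 0.393 CPM and 0.197 to 0.442 CPM in tumours 2 and 4, within or near the non-tumour range (0.187 to 0.409 CPM and 0.151 to 0.273 CPM). In tumour 3 Krt19 and Krt7 stood at 0.380 and 0.634 CPM. Cldn7 stood at 0.592 to 1.28 CPM in tumours 1, 2 and 4 and 0.136 to 0.252 CPM elsewhere. Sox9 and Epcam in those tumours overlapped non-tumour tissue. The part of bile duct cells in the Col4a3, Col4a4 and Col4a5 levels was not tested.

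Col18a1, the collagen and heparan sulfate proteoglycan whose C-terminal fragment is endostatin, is a multiplexin of basement membranes that hepatocytes are known to make (chromosome 10, 77052178 to 77166548). It stood at 612, 707, 638 and 669 CPM for tumours 1, 2, 3 and 4 and at 717, 805, 766 and 782 CPM for non-tumours 1, 2, 3 and 4. Every tumour library lay below every non-tumour library, by a small margin: 646 ± 38.6 CPM in tumours (SD, n = 3) against 751 ± 47.5 CPM in non-tumour pieces (SD, n = 2). The difference was within the spread that edgeR estimated (log2 fold change -0.23, SE 0.22, edgeR adjusted p = 0.995), and its direction held in all alternatives tried, with leave-one-out fold changes of -0.30 to -0.16. The deposited gene counts do not separate its isoforms, which start at separate promoters. The other multiplexin, Col15a1 of vessel basement membranes, stood at 3.32 CPM in tumour 1, 3.09 and 3.11 CPM in tumours 2 and 4 and 3.93 CPM in tumour 3, against 3.73 CPM in non-tumour 1 and 3.44, 3.48 and 2.81 CPM in non-tumours 2, 3 and 4. The groups overlapped, with all libraries between 2.81 and 3.93 CPM.

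FACIT collagens sit on the surface of fibrils. Col14a1 (chromosome 15, 55307750 to 55520803), the most abundant of them and known from stellate cells, stood at 39.4, 33.2, 34.9 and 36.4 CPM for tumours 1, 2, 3 and 4 and at 42.4, 33.3, 33.7 and 32.7 CPM for non-tumours 1, 2, 3 and 4. The libraries lay close together, with non-tumour 1 the highest and the other non-tumour libraries among the lowest (log2 fold change -0.063, SE 0.17, edgeR adjusted p = 0.995). Col12a1 (chromosome 9, 79598991 to 79718831), which binds type I fibrils in tendon and other loaded tissue, stood at 2.60 CPM in tumour 1, 2.45 and 2.71 CPM in tumours 2 and 4 and 3.49 CPM in tumour 3, against 1.77 CPM in non-tumour 1 and 1.57, 1.30 and 1.5 CPM in non-tumours 2, 3 and 4. Every tumour library was above every non-tumour library, with tumour 3 the highest (2.89 ± 0.518 CPM in tumours (SD, n = 3) against 1.61 ± 0.219 CPM in non-tumour pieces (SD, n = 2)). Its log2 fold change was 0.83 (SE 0.32, unadjusted p = 0.0404, edgeR adjusted p = 0.995). Col16a1 stood at 2.28, 1.62, 0.951 and 1.63 CPM for tumours 1, 2, 3 and 4 and at 1.16, 1.57, 0.614 and 1.44 CPM for non-tumours 1, 2, 3 and 4, with the groups overlapping and tumour 1 the highest. Col20a1 reached 1.01 CPM, and Col9a1, Col9a2, Col9a3 and Col22a1 at most 0.254 CPM.

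Collagen VI forms beaded filaments around cells, from alpha 1, alpha 2 and alpha 3 chains. All 3 genes were highest in tumour 1. Col6a1 stood at 5.92 CPM in tumour 1, 3.19 and 2.76 CPM in tumours 2 and 4 and 5.01 CPM in tumour 3, against 4.14 CPM in non-tumour 1 and 3.79, 4.02 and 3.93 CPM in non-tumours 2, 3 and 4, and Col6a2 at 5.33, 1.67, 2.09 and 1.63 CPM for tumours 1, 2, 3 and 4 and at 1.92, 2.68, 2.39 and 2.56 CPM for non-tumours 1, 2, 3 and 4. Col6a3 stood at 6.42 CPM in tumour 1, 3.53 and 4.29 CPM in tumours 2 and 4 and 4.12 CPM in tumour 3, against 3.99 CPM in non-tumour 1 and 5.13, 2.87 and 4.68 CPM in non-tumours 2, 3 and 4. In the other tumours the 3 genes lay at or near the non-tumour range, and without tumour 1 their fold changes turned from 0.19, 0.41 and 0.21 to -0.029, -0.28 and -0.052. Col6a6, just under the 1 CPM limit for full description with a mean of 0.973 CPM (Col16a1, just above it, had 1.44), stood at 1.04 to 1.96 CPM in tumours 1, 2 and 4, 0.127 CPM in tumour 3 and 0.273 to 1.01 CPM in non-tumour tissue. Its neighbour Col6a5 had 19 reads in tumour 1 and at most 2 in any other library.

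Of the transmembrane collagens, Col13a1, a cell adhesion protein, was measured above 1 CPM (chromosome 10, 61838236 to 61979108). It stood at 2.14, 1.82, 1.84 and 1.73 CPM for tumours 1, 2, 3 and 4 and at 4.49, 2.10, 1.91 and 2.18 CPM for non-tumours 1, 2, 3 and 4. Non-tumour 1 was above the rest, which lay between 1.73 and 2.18 CPM (log2 fold change -0.77, SE 0.40, edgeR adjusted p = 0.995). Without non-tumour 1 the fold change was -0.13. Col17a1, Col23a1 and Col25a1 reached at most 0.634 CPM. Among the short-chain and anchoring collagens, Col8a1 stood at 0.190 to 0.592 CPM over all libraries. Col8a2 had 15 reads in tumour 1 and at most 1 elsewhere, and Col7a1, of the anchoring fibrils of skin, at most 4 reads.

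The genes that make and modify collagen showed no common direction. Of 19 genes for hydroxylases, chaperones and secretion factors, 18 were tested, 0 passed and 8 had a positive fold change (median -0.052). Serpinh1, the collagen chaperone HSP47, stood at 17.3 CPM in tumour 1 and 9.38 to 12.2 CPM elsewhere, a value chosen after it was seen. The lowest p-values were those of Colgalt2, a collagen galactosyltransferase, at 0.478 ± 0.146 against 0.935 ± 0.180 CPM, the prolyl hydroxylase subunit P4ha1 at 8.22 ± 2.11 against 10.3 ± 1.04 CPM and Colgalt1 at 51.6 ± 4.76 against 59.1 ± 1.29 CPM. Of 13 genes for procollagen processing and crosslinking, 10 were tested, 0 passed and 5 had a positive fold change (median -0.020). Adamts14, a procollagen N-proteinase, stood at 4.44 to 5.42 CPM in tumours 1, 2 and 4, 0.444 CPM in tumour 3 and 0.291 to 0.959 CPM in non-tumour tissue, the same split of libraries as Col4a4 (log2 fold change 2.39, SE 1.00, edgeR adjusted p = 0.995). Pcolce2, an enhancer of procollagen processing, stood at 5.40 CPM in non-tumour 1 and 1.02 to 1.87 CPM elsewhere, and Loxl3, a lysyl oxidase, at 0.589 to 1.52 CPM in tumours and 1.5 to 1.77 CPM in non-tumour tissue.

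Of 9 collagen receptor genes, 8 were tested, 0 passed and 6 had a positive fold change (median 0.22). Ddr1, a receptor tyrosine kinase for collagens including type IV, stood at 7.47 CPM in tumour 1, 4.76 and 4.54 CPM in tumours 2 and 4 and 1.14 CPM in tumour 3, against 1.06 CPM in non-tumour 1 and 0.583, 0.819 and 0.811 CPM in non-tumours 2, 3 and 4. Tumours 1, 2 and 4 were high, and tumour 3 lay just above non-tumour 1 (log2 fold change 2.33, SE 0.77, edgeR adjusted p = 0.995). Itga2, a chain of an integrin that binds collagen, stood at 1.58 to 3.10 CPM in the same 3 tumours, had no read in tumour 3 and stood at 0.175 to 0.252 CPM in non-tumour tissue. Lair1, an inhibitory collagen receptor of immune cells, was highest in non-tumour 1 at 5.35 CPM, against 1.78 to 2.76 CPM elsewhere.

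Of 7 small proteoglycans that bind fibrils, 6 were tested, 0 passed and 3 had a positive fold change (median -0.0018). Prelp and Bgn stood at 27.8 ± 5.87 against 38.4 ± 5.83 CPM and 60.1 ± 8.64 against 75.2 ± 8.94 CPM, tumours first, and Fmod, fibromodulin, at 5.19 CPM in tumour 1 and 0.175 to 0.624 CPM elsewhere. Of 12 genes of the TGF-beta axis, the main inducer of fibrillar collagen, all were tested, 0 passed and 7 had a positive fold change (median 0.12). The ligand gene Tgfb2 stood at 1.33 to 1.82 CPM in tumours 1, 2 and 4, 0.380 CPM in tumour 3 and 0.205 to 0.404 CPM in non-tumour tissue. Tgfb3 was highest in tumour 1, at 2.96 CPM against 0.353 to 0.824 CPM elsewhere. Tgfb1 was highest in non-tumour 1, at 12.2 CPM, against 6.33 CPM in tumour 1 and 4.75 to 6.48 CPM in the other libraries. The part of these ligands in the collagen levels was not tested. Vascular smooth muscle markers stayed low, with a sum of 4 genes of 2.96 CPM in tumour 1 and 1.16 to 2.04 CPM elsewhere. Synm was highest in tumour 1, at 1.14 CPM against 0.136 to 0.540 CPM. Myh11 was not, at 1.28 CPM against 0.656 to 1.57 CPM.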

How the data were processed

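Each deposited file lists whole-number read counts for the genes of 1 library. Per the file headers, the authors made them with featureCounts 1.6.2 from Ensembl release 95 exons (GRCm38), using strand setting 2 and no option for multi-mapping reads. STAR 2.5.0 and Subread 1.6.2 stand in the submitters' processing notes. For trimming and read length, the sources used here give nothing.

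A reference table gave symbols for 54723 of 54838 gene IDs. Another gene on the same strand shared at most 1.54% of the exon length of any collagen. Groups and replicate numbers are those of the labels. Libraries of 1 group were summed where the chi-square per degree of freedom stayed under 10 (genes with at least 20 reads in the pair). The test was edgeR 4.0.16 (R 4.3.3), quasi-likelihood with robust dispersion, on TMM-scaled counts of genes that passed filterByExpr at its defaults of 10 reads and 15 in total. P-values were Benjamini-Hochberg adjusted over the whole table, at 0.05. SE was the absolute log2 fold change over the root of F. DESeq2 1.42.0 and voom of limma 3.58.1 were alternatives, besides other scalings and filters, leaving out libraries and a replicate block. The test code was tested on simulated data.

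Collagens averaging at least 1 CPM over the profiles were named, with every library given for the 3 most abundant per kb of each class, for any that passed the test, and for any with groups apart by 2-fold or more. Each further list gave up to 3 members of lowest p. The values of 1 such member are not reported here. Full values of Col1a1, Col1a2, Col4a4, Col4a5, Nid1 and Ddr1, collagens under 1 CPM, Serpinh1, Tgfb1 and the single markers were added after values were seen. Members and lists were chosen with earlier results of these data known.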

Additional observations from a re-analysis of the deposited data

How the results depend on the processing

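The count of called genes was 0 over the 5 profiles, 56 with the 8 libraries as separate replicates, 427 without a low-count filter, 2 with DESeq2, 0 to 5 when a library or profile was left out (5 without tumour 3) and 1798 over 7 separate libraries without tumour 3, a fit added after seeing the data. The count of called collagens was 0 over the 5 profiles, 3 without the low-count filter, 0 when a library or profile was left out, and 5 over the 7 libraries. The cause of the calls without a filter was not tested. The median fold change of the collagens ranged from 0.068 without tumour 1 to 0.44 when a library or profile was left out, and was 0.51 without the low-count filter. With the replicate number as a replicate block over the 8 libraries it was 0.26, with 0 genes and 0 collagens called. Same-numbered libraries deviated together with correlations of 0.363, -0.186, 0.307 and -0.169, so the numbers alone do not show pairing.

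Directions turned for 9 of the 21 named collagens. Over the 8 libraries Col4a1, Col4a2 and Col14a1 stood at 0.20, 0.16 and 0.018, with the block at 0.20, 0.19 and 0.023, and over the 7 libraries at 0.35, 0.24 and 0.028, with Col6a1 at -0.0024. Col4a1 stood at 0.00600 with library size scaling and Col4a2 at 2.283e-05 with voom. With libraries left out, fold changes that turned ranged over -0.32 to 0.36 (Col4a1), -0.40 to 0.37 (Col4a2), -0.23 to 0.11 (Col14a1), -0.12 to 0.067 (Col15a1), -0.38 to 0.51 (Col5a2), -0.029 to 0.43 (Col6a1), -0.28 to 0.72 (Col6a2), -0.052 to 0.34 (Col6a3) and -0.26 to 0.95 (Col27a1). The other 12 named collagens kept their direction in all alternatives run. In plain reads, not per kb, the fibrillar share in non-tumour tissue was 7.88% and the mean ratios of Col1a1 to Col1a2 and of Col4a1 to Col4a2 were 0.604 and 1.46. Where leaving out a profile left 1 in a group, that profile was assumed to vary like the other group.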
